A study of Mus musculus with 123 samples.

Results

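After transection of the sciatic nerve (SNT), not every sensory neuron of the lumbar dorsal root ganglia (DRG) on the operated side switched on the injury gene Atf3. The cells described here are the SNT-side neurons at day 3 with Atf3 under 100 CPM, the unit in which the counts of a cell are scaled to a total of 1e6, set against the control-side neurons of the same day. The limit selected 11 of the 41 SNT-side day 3 neurons kept after removal of outlier cells, among 106 kept single neurons and 123 libraries in the series. The 18 kept control-side neurons of day 3 were the comparison group, and the remaining 30 SNT-side neurons are called Atf3-high. Because no animal is named for any cell, the cells of one side stand as 1 sample, so no test was run, and means ± SD are over cells.

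Atf3 encodes a transcription factor that is nearly silent in uninjured sensory neurons and is induced when their axon is cut. Some neurons of a lumbar ganglion send no axon into the sciatic nerve, and a transection leaves them uncut. DRG neurons comprise nonpeptidergic nociceptors such as those with the receptor Mrgprd or the itch receptor Mrgpra3, peptidergic nociceptors with Calca, large myelinated mechanoreceptors and proprioceptors with Nefh, and C-fibre low-threshold mechanoreceptors with Th. Each soma is wrapped by satellite glia, whose RNA can be carried along when a neuron is picked.

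The day 3 cells came from F1 offspring of CAST/Eij males and C57BL/6 females, 2 months old. The study's methods describe these mice as female. The right sciatic nerve had been cut at mid thigh, and the control cells came from the contralateral ganglia of operated mice, so they were not cells of unoperated animals. The labels place the day 3 ganglia at L5, while the methods text names a wider lumbar range. Neurons were picked by hand and sequenced as Smart-seq2 libraries with 50 bp reads. How many mice contributed and whether each picked cell's axon had been cut are not given in the sources used here.

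The Atf3-low cells held 611647 to 1537755 counts (median 1174013) and the control cells 277390 to 1368842 (median 862619). Genes above 10 CPM numbered 8352 to 8739 per Atf3-low cell and 8119 to 9185 per control cell. After thinning each cell to 200000 counts, the mean number of genes with a count was 10434 ± 220 (SD, n = 11) and 10403 ± 491 (SD, n = 18). The summed level of 8 pan-neuronal markers was 8197 to 12912 CPM in the Atf3-low cells and 8517 to 14975 CPM in the control cells, so every cell carried neuronal RNA.

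Atf3 chose the cells, and its values are a description only. The 11 cells had 0.650 to 23 CPM, with a median of 6.81 CPM. The lowest SNT-side cell outside the limit had 951 CPM, the next 1018 CPM and the highest 4436 CPM, so no cell lay near the limit, and limits of 50 and 200 CPM selected the same cells. Control cells ranged from 0 to 75.7 CPM, and 6 of the 18 lay above the highest Atf3-low cell.

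Over all cells the other injury-response genes were near control levels in the Atf3-low cells. Jun, a transcription factor of the axotomy response, was 9.86 to 194 CPM (median 54.5) in the Atf3-low cells, 14.2 to 356 CPM (median 84.8) in the control cells and 143 to 817 CPM (median 394) in the Atf3-high cells. Sprr1a, an injury-induced protein that promotes neurite outgrowth, reached 71.8 CPM in the Atf3-low and 63.9 CPM in the control cells, against a median of 3588 CPM in the Atf3-high cells. The neuropeptide gene Gal reached 80.2 CPM and 164 CPM in the Atf3-low and control cells, against a median of 5911 CPM in the Atf3-high cells. For these genes the Atf3-low and control ranges overlapped almost throughout.

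Sox11, a transcription factor linked to axon growth, had a mean of 31.9 ± 33.8 CPM (SD, n = 11) in the Atf3-low and 32.1 ± 17.5 CPM (SD, n = 18) in the control cells, a log2 ratio of -0.01. All log2 ratios given here compare mean CPM after adding 1 CPM, and a difference of 2-fold is a log2 ratio of 1.

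**Figure D1:**
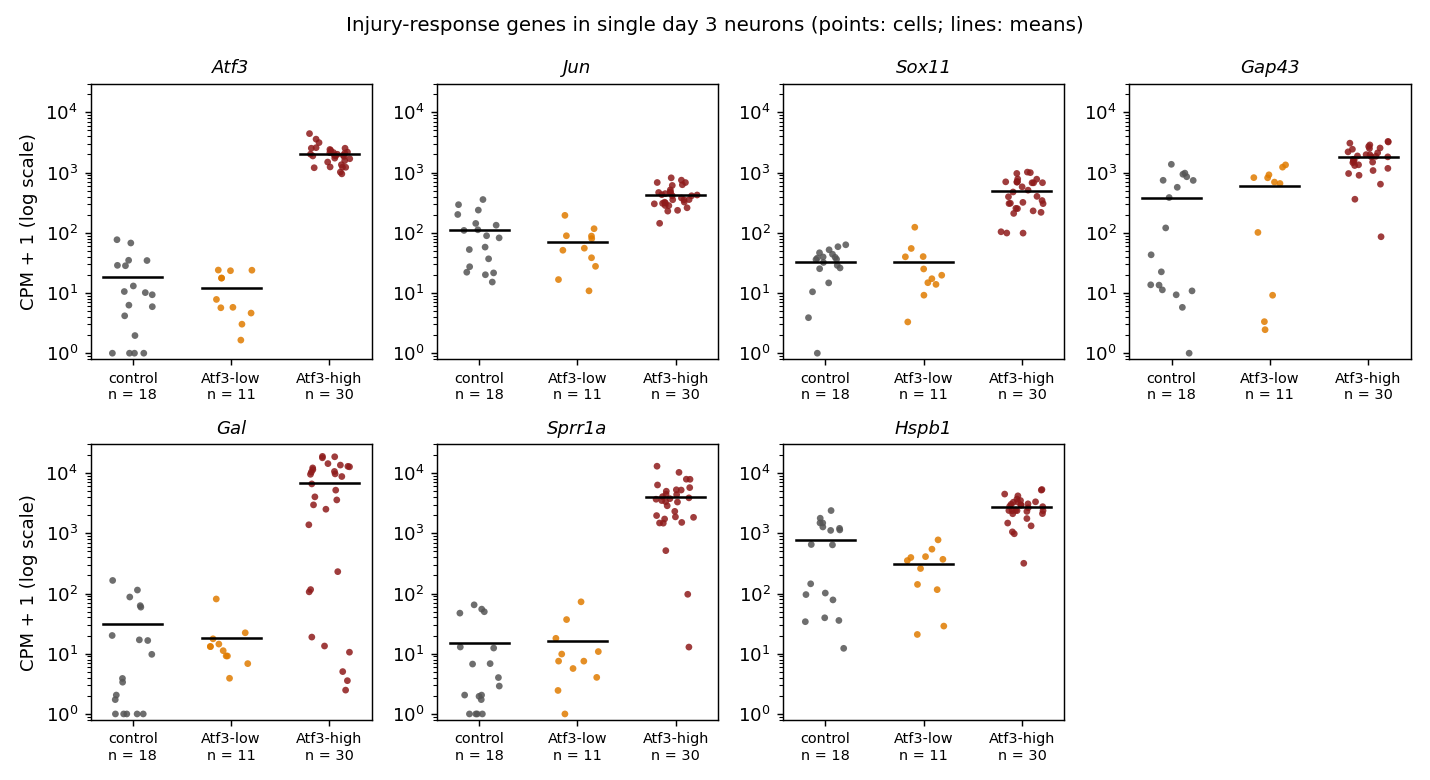
Levels of 7 genes (CPM + 1, log axis) in 18 control-side, 11 Atf3-low and 30 Atf3-high SNT-side neurons of day 3; points are cells and lines are means. For Jun, Sox11, Gap43, Gal and Sprr1a the Atf3-low cells lie within or close to the range of the control cells, and Atf3 chose the SNT-side groups.

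Of 30 regeneration associated genes other than Atf3, 24 averaged at least 1 CPM, and their median log2 ratio of Atf3-low to control cells was 0.01, beside -0.03 for all genes. It was 0.44 by medians over cells, 0.45 with the removed outlier cells put back, 0.93 among Mrgpra3-high cells only and 0.38 with cell types weighted as described further on. Among the 19 that averaged at least 10 CPM in either group, 1 was 2-fold higher, 1 was 2-fold lower and 17 lay within 2-fold. Across the whole table, 127 of 9514 genes at 10 CPM (1.33%) were at least 2-fold higher and 222 (2.33%) at least 2-fold lower, beside 5.26% of the list in each direction. For the whole table, by medians over cells 245 genes were higher and 218 lower, and with the removed outlier cells put back 451 were higher and 166 lower. In the Atf3-high cells the same list had a median of 2.65, with 21 of 24 genes 2-fold higher, where 7.97% of all genes were higher and 11.3% lower.

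The 2 members beyond 2-fold were Stmn4 and Hspb1. Stmn4, a microtubule regulator of the stathmin family, averaged 17.6 ± 15.4 CPM in the Atf3-low and 5.54 ± 9.04 CPM in the control cells (log2 ratio 1.51), and 184 CPM in the Atf3-high cells. Hspb1, the small heat shock protein that protects injured sensory neurons, was 19.9 to 778 CPM (median 352) in the Atf3-low and 11.3 to 2388 CPM (median 646) in the control cells (log2 ratio -1.29). The ranges of Hspb1 overlapped, and 37.4% of all pairs of an Atf3-low and a control cell had the higher value in the Atf3-low cell.

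The libraries of pooled neurons gave a list of injury genes that did not use the single cells. In these libraries, 3 technical parts of 1 pool per side, 287 of 9830 genes (2.92%) were at least 4-fold higher on the SNT side with no overlap and 260 (2.64%) at least 4-fold lower. The side of each pooled library was taken from its column name, while the identifier row of the table pairs these columns the opposite way. In the Atf3-high cells the raised genes had a median log2 ratio of 2.21 and the lowered genes of -2.26, the directions of the column names.

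In the Atf3-low cells the raised genes had a median log2 ratio of -0.03 over 255 genes at 1 CPM. Of the 138 raised genes at 10 CPM, 16 were 2-fold higher (11.6%, against 1.33% of all genes) and 14 were 2-fold lower (10.1%, against 2.33%), so both directions were more frequent than in the whole table, whereas 224 of 256 were higher in the Atf3-high cells. The lowered genes had a median of -0.28 in the Atf3-low cells, with 38 of 212 at least 2-fold lower (17.9%, against 2.33% of all genes) and 5 higher (2.36%, against 1.33%). In the Atf3-high cells 186 of 209 were lower. Genes at 10 CPM in neither of the 2 groups compared were left out of each count. With cell types weighted, the medians were 0.47 for the raised and -0.03 for the lowered genes.

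**Figure D2:**
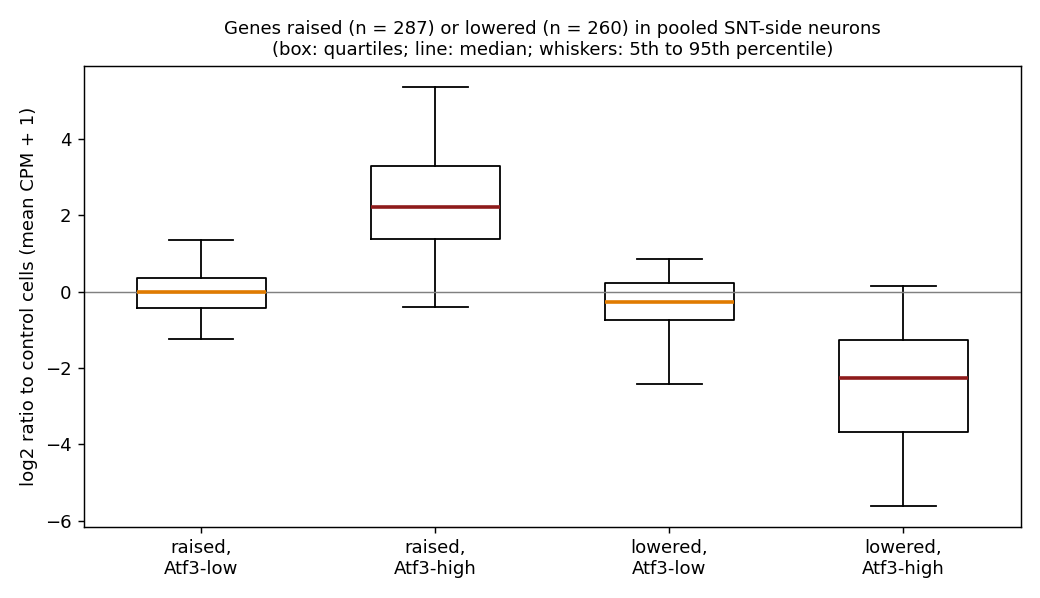
Log2 ratios to the control cells (vertical axis) of the genes raised or lowered at least 4-fold in pooled SNT-side neurons, in Atf3-low and Atf3-high cells; boxes are quartiles, coloured lines medians and whiskers the 5th and 95th percentiles over genes. The box of the raised genes spans -0.44 to 0.35 in the Atf3-low cells and 1.39 to 3.3 in the Atf3-high cells.

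The kinds of neuron differed between the groups. Mrgpra3, a receptor for the pruritogen chloroquine, was at 500 CPM or more in 6 of 11 Atf3-low cells (54.5%, exact Clopper-Pearson 95% interval 23.4 to 83.3) and in 2 of 18 control cells (11.1%, 1.38 to 34.7). It was at that level in 0 of 30 Atf3-high cells, with an upper limit of 11.6%. These intervals and limits, here and below, cover counting error only. They treat cells as independent draws, although no animal is named and cells were picked to balance small, medium and large neurons. They give no bound on the share among all neurons of a ganglion. Mrgprd, which marks the other large class of nonpeptidergic nociceptors, was at 1000 CPM or more in 3 of 11 Atf3-low cells (27.3%). It was at that level in 6 of 18 control cells (33.3%) and again in 0 of 30 Atf3-high cells. Mrgprd is on the list of genes lowered in pooled SNT-side neurons, with a log2 ratio of -7.10 to control in the Atf3-high cells. P2rx3, another nonpeptidergic marker, was at 100 CPM or more in 15 of those 30 cells. The share of each class among the Atf3-high cells therefore cannot be read from these markers.

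The 3 Mrgprd-high Atf3-low cells, SNT-side cells 6, 16 and 17, had 1718 to 2013 CPM of Mrgprd, inside the 1287 to 2396 CPM of the 6 control cells. Cell 16 also carried 860 CPM of Mrgpra3, whereas cells 6 and 17 had 86.0 and 59.1 CPM. The Mrgpra3-high cells with little Mrgprd were SNT-side cells 1, 8, 9, 23 and 44, with 587 to 1005 CPM of Mrgpra3. Their control counterparts, control-side cells 5 and 10, had 849 and 1112 CPM.

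The remaining 3 Atf3-low cells differed from each other. SNT-side cell 18 had 2528 CPM of the calcium-binding protein gene Calb1 and 1482 CPM of Nefh, with 4.25 CPM of Calca and no count of the nociceptor sodium channel Scn10a. SNT-side cell 20 had 20041 CPM of Calca. SNT-side cell 31 had 8579 CPM of Calca and 545 CPM of the receptor tyrosine kinase gene Kit. The cold channel gene Trpm8 was above 10 CPM in cells 20 and 31, at 67.6 and 84.2 CPM, and did not exceed 6.80 CPM in any control cell.

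No Atf3-low cell was Th-rich (0 of 11, with an upper limit of 28.5%), whereas control-side cells 4 and 7 had 4804 and 4165 CPM of Th. These cells carried several of the largest ratios. Th averaged 0.761 CPM in the Atf3-low and 502 CPM in the control cells (log2 ratio -8.16), while the medians of both groups were 0. The opioid precursor gene Penk, with 241 and 219 CPM in these same cells, had a log2 ratio of -4.09. Calb1 (log2 ratio 2.47) rested on cell 18 in the same way. A lone cell held at least 50% of the group's summed level in 30 of the 127 higher genes (23.6%), 12 of them in cell 18 and 10 in cell 31, and in 20 of the 222 lower genes (9.01%), 9 of them in control-side cell 4.

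**Figure D3:**
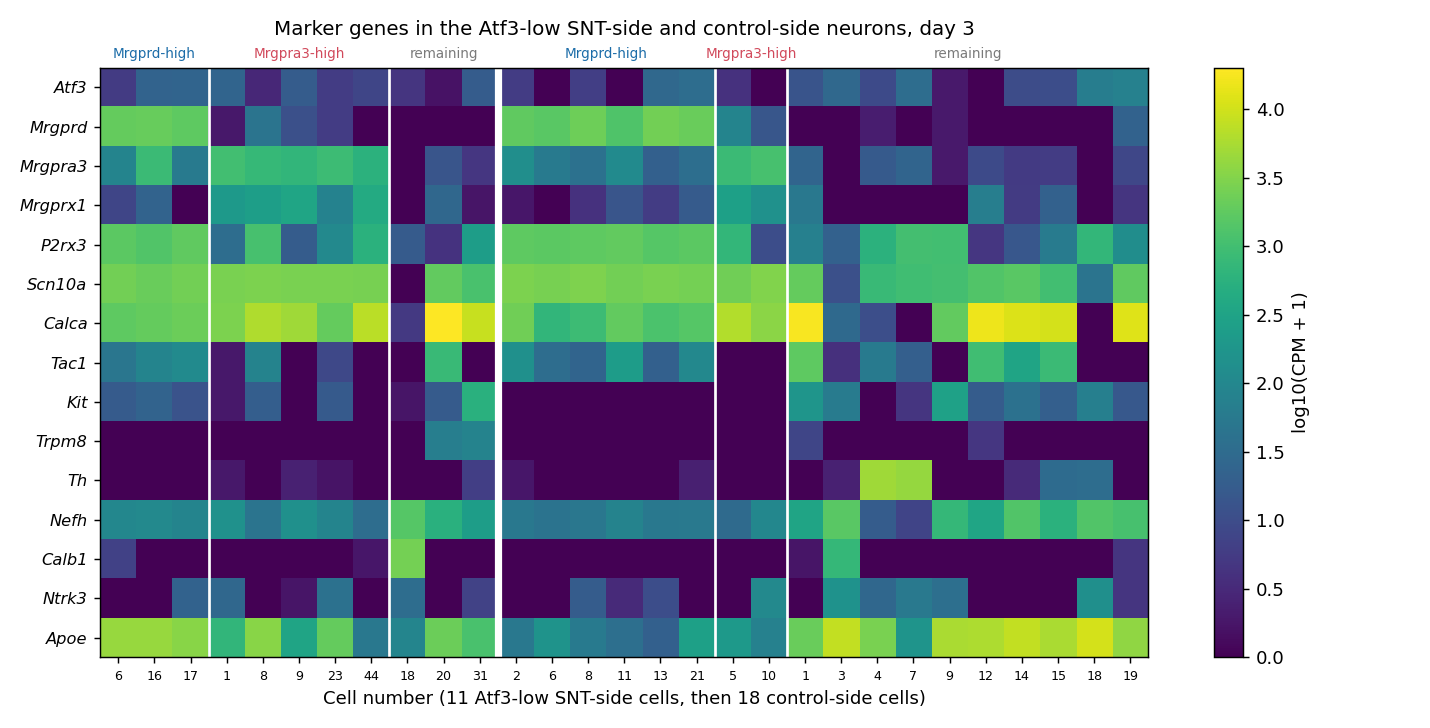
Levels of Atf3 and 14 marker genes (rows) in 11 Atf3-low and 18 control-side neurons (columns, by cell number), coloured by log10(CPM + 1) and ordered by Mrgprd-high, Mrgpra3-high and remaining cells. There are 5 Mrgpra3-high cells with little Mrgprd on the Atf3-low side and 2 on the control side, Th is high in 2 control cells only, and Apoe is higher in the Mrgprd-high Atf3-low cells than in the Mrgprd-high control cells.

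Sodium channels of nociceptors were near control levels in the Atf3-low cells and not in the Atf3-high cells. Scn10a, encoding Nav1.8, averaged 2160 ± 873 CPM in the Atf3-low, 1781 ± 976 CPM in the control and 64.0 ± 80.8 CPM in the Atf3-high cells. Scn11a, encoding Nav1.9, averaged 810 ± 548, 607 ± 621 and 9.79 ± 13.9 CPM in the same order. Of 12 sodium channel genes at 10 CPM none was 2-fold higher and Scn1a alone was lower, at 35.9 ± 87.6 against 81.6 ± 142 CPM. Its log2 ratio of -1.16 was -0.65 without control-side cell 3 and -2.79 without SNT-side cell 18. By medians over cells Scn1a differed the other way, at 0.931 against 0 CPM, as it did with cell types weighted (1.3). Its type-weighted means were 1.45 and 0 CPM. Scn9a, encoding Nav1.7, was 400 to 743 CPM in the Atf3-low and 148 to 1163 CPM in the control cells, with a log2 ratio of -0.35.

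The naming rule, which asked for a 2-fold difference of both means and medians and the same order in at least 80% of cell pairs, gave 6 higher genes (0.0631% of those at 10 CPM) and 10 lower genes (0.105%). Smyd3, a lysine methyltransferase gene, was 31.9 to 516 CPM (median 83.2) in the Atf3-low and 11.7 to 208 CPM (median 28.6) in the control cells. The 4 Atf3-low cells above every control cell were all Mrgpra3-high, and the log2 ratio was 1.83. Summed over cells, Smyd3 took 174 CPM (exact Poisson 95% interval 167 to 182) on the Atf3-low side and 52.4 CPM (48.9 to 56.1) on the control side. The Poisson intervals leave out the spread between cells and the amplification of reads without molecular identifiers.

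Smyd3 differed between cell classes on both sides. Mrgpra3-high cells had 182 to 516 CPM on the Atf3-low side and 119 and 208 CPM on the control side, and Mrgprd-high cells had 50.7 to 83.2 and 23.8 to 73.3 CPM. Averaging the Mrgprd-high and Mrgpra3-high control cells in the 3 to 5 proportion of the Atf3-low cells, hereafter the type-weighted comparison of 8 Atf3-low with 8 control cells, left a log2 ratio of 0.85. The 2 Mrgpra3-high control cells carry most of the weight in that comparison. In the Atf3-high cells Smyd3 averaged 22.4 CPM.

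Dhx58, which encodes the RNA sensor LGP2 of the interferon response, averaged 12.2 ± 12.6 CPM in the Atf3-low and 2.20 ± 3.2 CPM in the control cells (log2 ratio 2.04, type-weighted 2.32). It exceeded 10 CPM in 4 of 11 Atf3-low cells, 1 of 18 control cells and 0 of 30 Atf3-high cells. The fatty alcohol-forming reductase gene Far2 was 6.90 to 125 CPM (median 76.5) against 0 to 57.4 CPM (median 20.9), with 6 Atf3-low cells above every control cell (log2 ratio 1.53). Frmd7 (1.59), the acyl-CoA thioesterase gene Acot11 (1.32) and the microtubule-associated gene Mtus2 (1.32) were the other higher genes, and their type-weighted log2 ratios were 1.58, 3.00 and 0.66. Acot11 was under 2-fold without SNT-side cell 8 (0.95).

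Tagln2, an actin-binding protein gene, differed in the share of cells that carried it. It was under 10 CPM in SNT-side cells 1, 6, 9, 18, 23 and 31 (0 to 8.29 CPM), at 32.9 and 265 CPM in cells 16 and 17, and at 441 to 560 CPM in cells 8, 20 and 44. Control-side cells 3 and 10 had 5.85 and 0.789 CPM, and the other 16 had 126 to 1025 CPM. The means were 169 ± 236 and 514 ± 336 CPM (log2 ratio -1.60, type-weighted -1.47, or -0.56 type-weighted without control-side cell 5). In the Mrgprd-high cells the groups did not overlap, at 0 to 265 CPM against 518 to 1025 CPM, where 1.72% of 9119 genes had every Atf3-low cell below every control cell.

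Igfbp2, which encodes an insulin-like growth factor binding protein, had a log2 ratio of -2.60, which became -4.33 without SNT-side cell 20 and -1.19 in the type-weighted comparison. Its type-weighted means were 0.146 and 1.62 CPM. It had counts in SNT-side cells 6 and 20 only, at 1.17 and 28.6 CPM, against up to 118 CPM in the control cells. Its 5 highest control values were in the remaining cells, and no Mrgpra3-high cell of either side had a count. Gfra4, a coreceptor of the GDNF family, was lower with a log2 ratio of -1.41 (type-weighted -1.66). Zbtb18, a transcriptional repressor gene, was 1.17 to 14.7 CPM (median 3.4) against 3.61 to 52.6 CPM (median 9.71), with 6 Atf3-low cells below every control cell.

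The other lower genes were Lrrc3b (-1.65), the zinc finger gene Zkscan14 (-1.42), the mRNA decapping gene Dcp1a (-1.26), Tmem170b (-1.22), the synaptic adhesion gene Cadm2 (-1.16) and the sestrin gene Sesn3 (-1.07). Their type-weighted ratios ran from -2.38 for Dcp1a to -0.63 for Lrrc3b. Dcp1a without control-side cell 5 (-0.997) and Sesn3 without SNT-side cell 44 (-0.96) were under 2-fold. The 16 genes were chosen on these same cells, so their direction within classes is no separate evidence. The ratio moved by more than the spread on leaving out single cells for 7 of the 16 in the Mrgprd-high cells, 9 in the Mrgpra3-high cells and 6 in the type-weighted comparison.

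**Figure D4:**
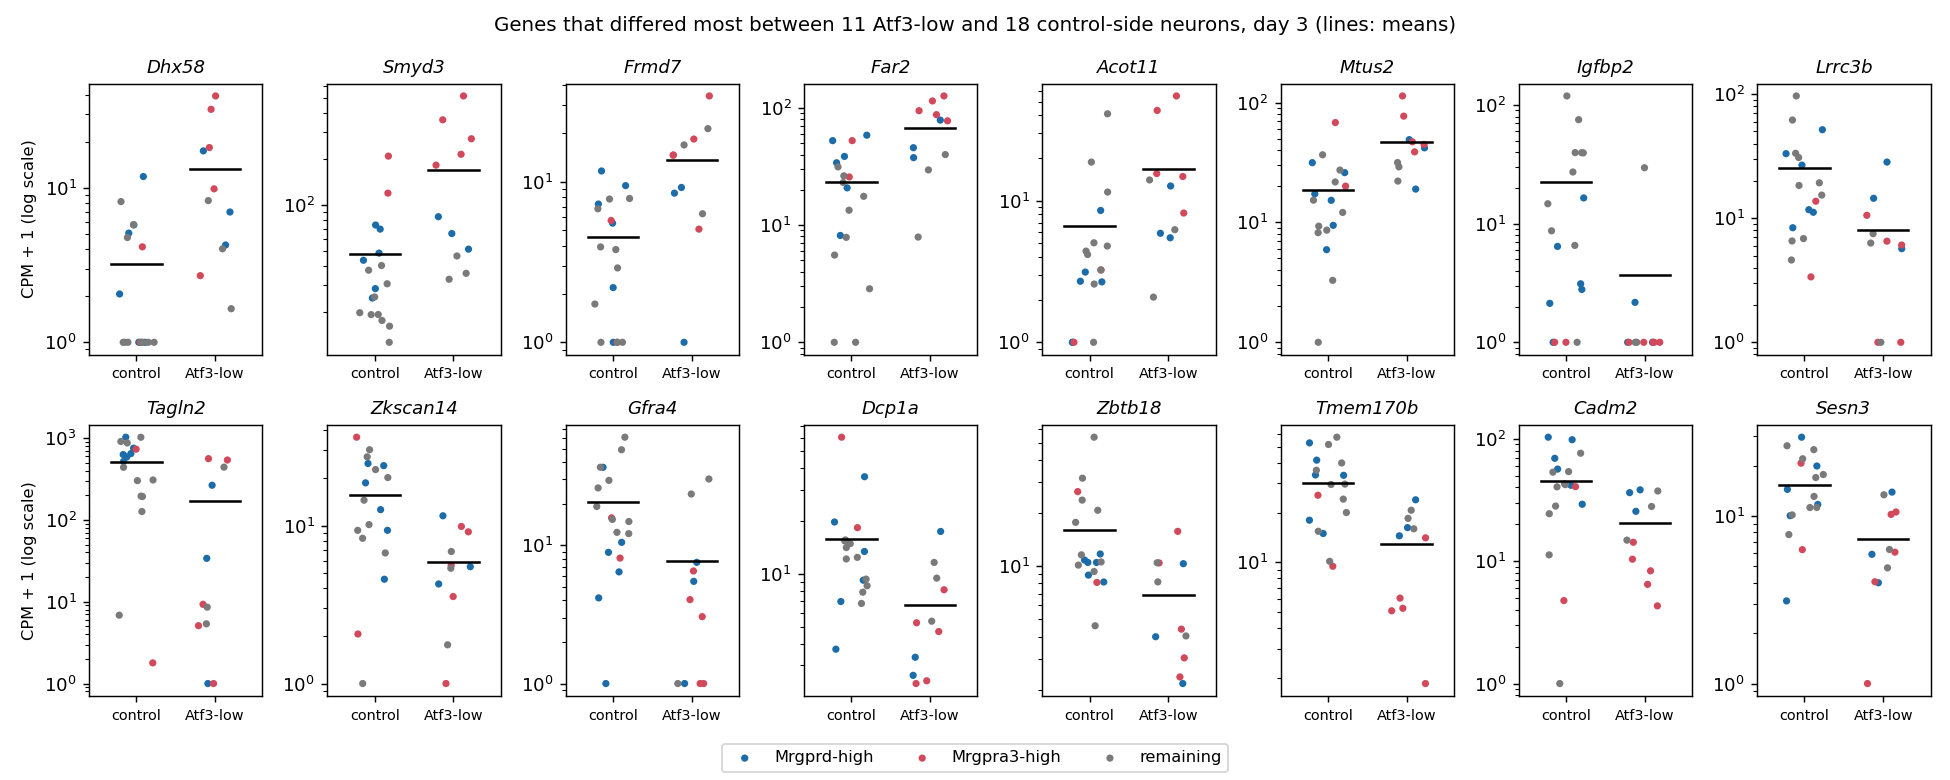
Levels of the 16 genes given by the naming rule (CPM + 1, log axes that differ between panels) in 18 control-side and 11 Atf3-low neurons of day 3; points are cells coloured by marker class and lines are means. Most Atf3-low cells of the upper row's first 6 genes lie above most control cells and the reverse holds for the other 10, while the ranges overlap in every panel.

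Cells matched by type shared few differences. In the Mrgprd-high cells, 3 against 6, 436 of 9119 genes (4.78%) were 2-fold higher and 240 (2.63%) lower, and in the Mrgpra3-high cells, 5 against 2, 724 of 9237 (7.84%) were higher and 426 (4.61%) lower. Every Atf3-low cell lay above every control cell for 4.19% of genes in the first class and 5.67% in the second, and below for 1.72% and 3.89%. Of 8480 genes at 10 CPM in both classes, 22 (0.259%) had every Atf3-low cell above every control cell in both classes, and 14 (0.165%) of these were also 2-fold higher in both. There were 7 (0.0825%) with every Atf3-low cell below, of which Plxna2 alone (0.0118%) was 2-fold lower in both. With 3 against 6 and 5 against 2 cells, full separation can also arise by the random order of cells. The share of genes separated in that way was not computed, so these counts are descriptions only. The genes were picked out after their values were seen.

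Plxna2, which encodes the semaphorin receptor plexin A2, was 5.99 to 13.1 CPM in the Mrgprd-high Atf3-low cells and 22.6 to 45.2 CPM in their controls. In the Mrgpra3-high cells it was 28.5 to 131 CPM against 201 and 218 CPM. Over all cells the means were 103 and 158 CPM, a log2 ratio of -0.61.

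The 14 higher genes included Cryab, Ednrb, Ehd2, Ezr, Fbln5, Gpm6b, Ifitm3, Phgdh, Pmepa1, Prss35, Serpine2, Slc7a2 and Sparcl1. Of these, the endothelin receptor gene Ednrb, the membrane glycoprotein gene Gpm6b and the serine synthesis gene Phgdh are well known from glia. Ednrb was 124 to 320 CPM in the Mrgprd-high Atf3-low cells against 0 to 18.8 CPM in their controls, and 13.2 to 147 CPM against 0.868 and 2.02 CPM in the Mrgpra3-high cells. Over all cells Ednrb averaged 101 and 110 CPM, a log2 ratio of -0.12.

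Glial RNA moved with these matched differences. The summed level of 10 glial markers was 5550 to 7328 CPM in the 3 Mrgprd-high Atf3-low cells against 1192 to 1986 CPM in the 6 controls, and 2214 to 6138 CPM in the 5 Mrgpra3-high Atf3-low cells against 1073 and 1692 CPM in the 2 controls, with no overlap in either class. In the remaining cells the order was the other way, at 215 to 3285 CPM against 3495 to 13628 CPM. Over all cells the medians were 3285 and 3717 CPM. Of 8 glial genes at 10 CPM, 6 were at least 2-fold higher in the type-weighted comparison, with a median log2 ratio of 3.06 beside 0.02 for all genes. Apoe, the lipid carrier made by satellite glia, was 3392 to 4281 CPM in the Mrgprd-high Atf3-low cells and 20.2 to 281 CPM in their controls. The part of glial RNA in the matched differences was not tested.

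Immune markers stayed low, at 0 to 26.6 CPM summed over 13 genes in the Atf3-low cells and 0 to 98.1 CPM in the control cells, and none of them averaged 10 CPM.

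**Figure D5:**
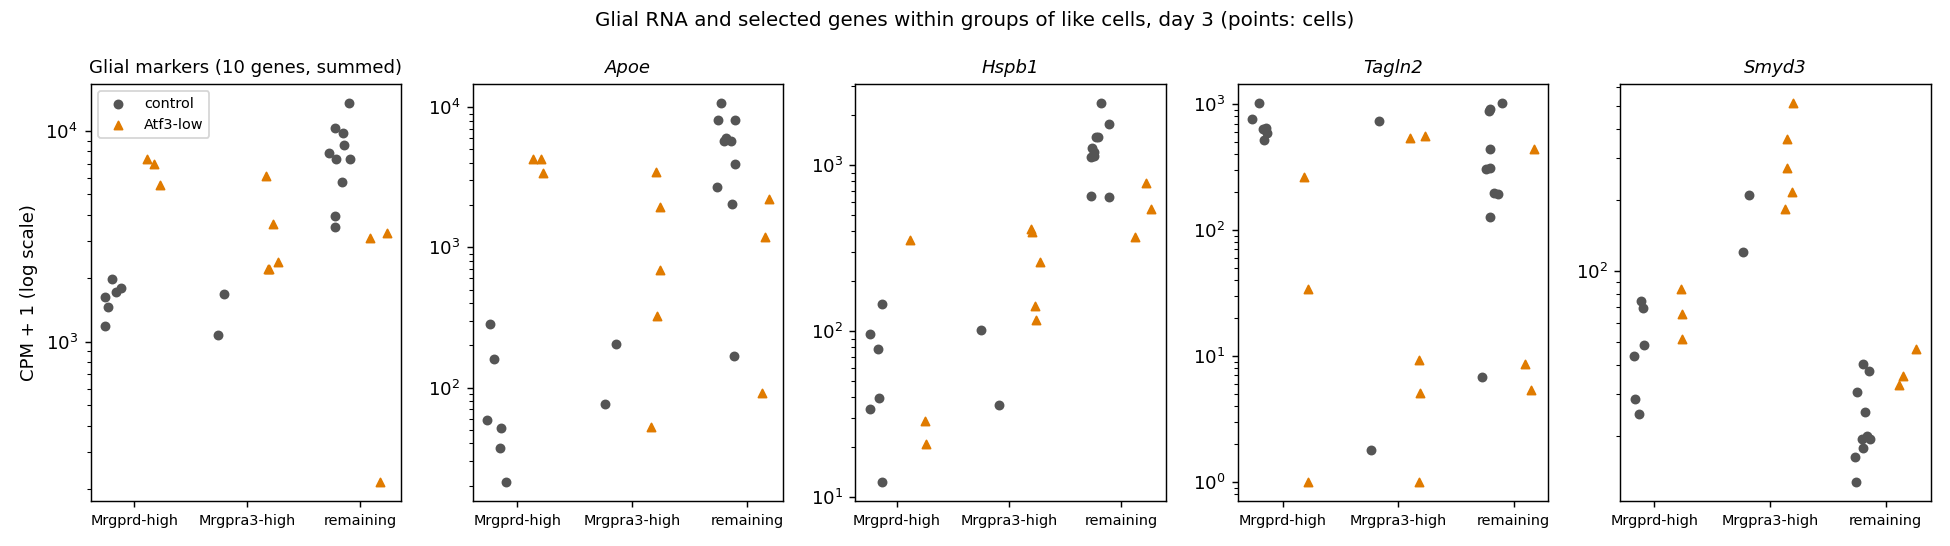
Summed glial markers and 4 genes (CPM + 1, log axes that differ between panels) in control-side (circles) and Atf3-low (triangles) neurons of day 3, by marker class; points are cells. The glial sum is higher in every Mrgprd-high and Mrgpra3-high Atf3-low cell than in the control cells of the same class and lower in every remaining Atf3-low cell than in the remaining control cells.

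Several group differences turned round between all cells and the type-weighted comparison, where 378 of 9246 genes (4.09%) were 2-fold higher and 188 (2.03%) lower. Hspb1 had a type-weighted log2 ratio of 1.66, with means of 215 and 67.3 CPM, in the cells with more glial RNA. In the Mrgpra3-high cells it was 115 to 409 CPM against 34.7 and 101 CPM, and in the remaining cells 369 to 778 CPM against 642 to 2388 CPM. Of 20 regeneration associated genes at 10 CPM, Hspb1, Gal and Sprr1a were 2-fold higher (15%, against 4.09% of all genes) and none was lower. Means were 21.3 and 5.69 CPM for Gal and 19.3 and 3.81 CPM for Sprr1a. Both stayed far below the Atf3-high medians.

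Immediate early genes, which are switched on within minutes by activity or handling, averaged lower in the Atf3-low cells, but not when cell types were weighted. Of 8 at 10 CPM, Fos, Egr1, Ier2 and Dusp1 were 2-fold lower (50%, against 2.33% of all genes) and none was higher. The list's median log2 ratio was -1.20. Type-weighted, the median was -0.03, with Egr1 and Nr4a1 higher (25%, against 4.09% of all genes) and Ier2 lower (12.5%, against 2.03%). These means came from few cells, and without control-side cell 13 Fos (-0.69), Ier2 (-0.72) and Dusp1 (-0.97) were under 2-fold. Fos reached 238 CPM in control-side cell 13 and 95.8 CPM in SNT-side cell 16, with medians of 4.24 and 4.90 CPM. Egr1 had a log2 ratio of -1.22 over all cells (-0.72 without control-side cell 12) and 1.5 in the type-weighted comparison. The latter rested on SNT-side cell 16, which had 91.3 CPM, and was -0.63 without it.

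Many of the 2-fold differences in the lists that follow rested on a lone cell. Among all genes at 10 CPM, 1.33% were 2-fold higher and 2.33% lower over all cells, and 4.09% and 2.03% type-weighted. Of 38 such genes from the lists of markers and functions, naming-rule genes aside, 18 stayed past 2-fold whichever cell was left out. Among ion channels other than the sodium channels, differences were few. Of 39 potassium channel genes at 10 CPM, the leak channel genes Kcnk1 and Kcnk10 were 2-fold higher and Kcnd3 was lower. Kcnk10 averaged 20.9 ± 18.6 against 7.67 ± 9.41 CPM (log2 ratio 1.34, type-weighted 1.15). Kcnk1 rested on SNT-side cell 18, which had 366 CPM, and without that cell its log2 ratio was -1.26. Kcnd3 had a log2 ratio of -1.15 over all cells, -0.65 without control-side cell 4, 0.23 by medians over cells and 0.0034 type-weighted. In the type-weighted comparison 4 of 37, Kcnj10, Kcnk10, Kcnn2 and Kcnn4, were higher (10.8%, against 4.09% of all genes) and none was lower. Kcnj10, the inward rectifier channel gene known from satellite glia, averaged 24.7 and 0.75 CPM there. Of 13 calcium and HCN channel genes, 3 were lower (23.1%, against 2.33% of all genes). Among them were the T-type channel gene Cacna1h and the pacemaker channel gene Hcn2. Without control-side cell 3 the log2 ratio of Hcn2 was -0.56 instead of -1.09. Type-weighted, none of 11 was 2-fold higher or lower, and Cacna1h was 0.28, at means of 0.212 and 0 CPM.

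Of 14 TRP, Piezo and acid-sensing channel genes, Trpm8 was higher and the acid-sensing channel genes Asic1 and Asic3 were lower. Asic1 had a log2 ratio of -1.68 over all cells and 1.69 in the type-weighted comparison, at means of 2.87 and 0.199 CPM there. Asic3 was -0.87 without control-side cell 19 instead of -1.31, and 0.14 type-weighted, at means of 0.192 and 0.085 CPM. Of 12 genes of this list type-weighted, Trpv1 was 2-fold higher (8.33%, against 4.09% of all genes). Trpc1 and Trpm2 were lower (16.7%, against 2.03%). Trpv1 was 1.46, or -1.09 without SNT-side cell 8. Without control-side cell 5, Trpc1 was -0.33 instead of -1.21 and Trpm2 1.13 instead of -1.06. Of 5 purinergic receptor genes the ADP receptor gene P2ry1 was lower, at 1.45 to 49.5 CPM against 0 to 984 CPM. Of 5 type-weighted, P2rx2 alone was lower, at 8.05 and 36.4 CPM (-2.05, or 0.03 without control-side cell 5). Of 15 GABA and glutamate receptor genes, Gabrg1 was higher and Gabra5 lower, and the ratio of Gabrg1 changed sign without SNT-side cell 18.

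Of 9 neuropeptide genes at 10 CPM, 3 averaged 2-fold lower (33.3%, against 2.33% of all genes) and none was higher. They were the substance P gene Tac1, the PACAP gene Adcyap1 and Penk. Adcyap1 reached 895 CPM in control-side cell 1, and without that cell its log2 ratio was 0.54 instead of -1.74. Tac1 had a log2 ratio of -1.24, which was -0.64 without that same control cell and -2.84 without SNT-side cell 20. Type-weighted, Tac1 (0.27) and Penk (0.85) turned round, with Penk at means of 0.989 and 0.103 CPM. In the type-weighted comparison 4 of 9, Adcyap1, Gal, Cartpt and the neurotrophin gene Bdnf, were 2-fold higher (44.4%, against 4.09% of all genes). None was lower. Bdnf was 28.6 to 537 CPM in the Mrgpra3-high Atf3-low cells against 6.35 and 20.5 CPM in their controls, and in the Mrgprd-high cells the groups overlapped. Cell 44 held the 537 CPM, and the next highest Mrgpra3-high cell had 96.5 CPM. Calca, the CGRP gene, averaged 5219 ± 5588 against 4942 ± 5998 CPM. Of 10 receptor genes for neurotrophins and GDNF family ligands, Ntrk3, Gfra2 and Gfra4 were lower (30%, against 2.33% of all genes). Ntrk3 was under 2-fold without control-side cell 3 (-0.92), as was Gfra2 without control-side cell 4 (-0.85) and type-weighted (-0.33). Ntrk2 alone of 10 was 2-fold higher type-weighted (10%, against 4.09% of all genes), at means of 52.0 and 4.82 CPM. Its type-weighted log2 ratio was at least 2.81 on leaving out each cell. Gfra4 and Ntrk3 were lower there (20%, against 2.03%). The type-weighted ratio of Ntrk3 was -1.55, or 2.11 without control-side cell 10. Gfra2 was 425 to 675 CPM in the Mrgprd-high Atf3-low cells and 563 to 863 CPM in their controls.

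Of 13 sensory neuron transcription factor genes at 10 CPM, Pou4f2, Runx1, Hoxd1 and Zfp521 averaged lower (30.8%, against 2.33% of all genes) and none was higher. With cell types weighted Runx1 remained lower, at -0.88, while Pou4f2 (0.58), Hoxd1 (1.41) and Zfp521 (1.48) turned round and none of 10 genes was 2-fold lower. By medians over cells Hoxd1 (0.90) and Zfp521 (1.14) also turned round. Runx1, which specifies nonpeptidergic nociceptors, was 77.8 to 173 CPM in the Mrgprd-high Atf3-low cells and 166 to 236 CPM in their controls. Of 13 cytokine receptor genes the IL-31 receptor gene Il31ra was higher, at 10.0 ± 12.6 against 2.40 ± 3.85 CPM (log2 ratio 1.7, type-weighted 1.76), and it averaged 137 CPM in the Atf3-high cells. Of 13 interferon response and MHC class I genes Ifit3 was higher (1.31, 0.81 without SNT-side cell 23, type-weighted -0.10) and the list's median was 0.25. In the type-weighted comparison 4 of 15 were 2-fold higher (26.7%, against 4.09% of all genes) and none was lower. They were the restriction factor gene Ifitm3, the antiviral gene Oasl2 and the antigen-processing genes Psmb8 and Tap2. Oasl2 averaged 32.8 and 9.18 CPM there, and Tap2 23.2 and 9.9 CPM (0.80 on the log2 scale without control-side cell 5), in the cells with more glial RNA.

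Over all cells several groups of housekeeping and stress genes lay within 2-fold. None of 73 cytosolic ribosomal protein genes, 73 oxidative phosphorylation genes, 20 cholesterol and fatty acid synthesis genes, 17 tubulin, neurofilament and related genes, 12 genes of the unfolded protein and integrated stress response, 12 cell death genes or 10 regeneration inhibitor and receptor genes was 2-fold higher or lower. Of 20 synaptic vesicle and release genes Sv2a alone was lower (-1.03), and it was -0.51 without control-side cell 7 and -1.94 without SNT-side cell 31. Type-weighted, Sv2a was -1.25, or 2.14 without control-side cell 5. Of 12 heat shock and chaperone genes Hspb1 alone was lower over all cells. In the type-weighted comparison 3 of 13, Hspb1, the small heat shock protein gene Cryab and Hspa1a, were higher (23.1%, against 4.09% of all genes) and none was lower, in the cells with more glial RNA. Hspa1a was 0.20 without SNT-side cell 8 instead of 1.15. Type-weighted, Vim alone of 16 tubulin, neurofilament and related genes was higher (6.25%, against 4.09% of all genes), at 228 and 35.9 CPM. Its log2 ratio was 2.63, and at least 1.98 on leaving out each cell. Rps4l alone of 73 ribosomal protein genes was higher (1.37%), at 1.08, or 0.77 without SNT-side cell 1. Bcl2l2 alone of 10 cell death genes was lower (10%, against 2.03%), at -1.03, or -0.35 without control-side cell 5.

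At day 7 the same Atf3 limit selected 21 of 33 SNT-side cells, set beside 14 control cells. That experiment used C57BL/6 mice of both sexes, L3 to L5 ganglia and 75 bp reads, so the days differ in more than time and no difference between them was tested. At day 7, 524 of 9606 genes (5.45%) differed by at least 2-fold. Of the 127 genes higher at day 3, 110 averaged 1 CPM at day 7 and 51.8% of them were above 0 on the log2 scale, against 44.4% of all genes. Of the 222 lower genes, 52.1% of 217 were below 0, against 55.6% of all genes.

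Few named differences recurred. Tagln2 averaged 70.3 against 355 CPM at day 7 (log2 ratio -2.32), and Hspb1 433 against 905 CPM (-1.06). Comp, a matrix protein gene, averaged 1.78 ± 5.67 against 94.2 ± 275 CPM at day 3 and 1.68 ± 4.38 against 80.3 ± 132 CPM at day 7. Its type-weighted day 3 ratio was -5.69, or -0.31 without control-side cell 5. Runx1 (-1.39), Gfra2 (-2.05) and the serotonin receptor gene Htr3a (-1.51) were also lower by 2-fold on both days. For Htr3a, 49.0% of day 3 cell pairs had the higher value in the Atf3-low cell. Its type-weighted day 3 ratio was 2.68, the other direction, or -0.86 without SNT-side cell 8. The day 7 ratio of Runx1 was 0.099 without control-side cell 14 of that day, and the day 7 ratio of Hspb1 was -0.99 without SNT-side cell 2 of that day. Cntnap4 was higher on both days, with log2 ratios of 1.51 and 1.34, and over all cells stayed past 2-fold whichever cell was left out. Type-weighted, its day 3 ratio was 0.76, or 0.005 without control-side cell 5. Thbd, the thrombomodulin gene, was also higher on both (2.48 and 1.79), but SNT-side cell 44 of day 3 held 169 CPM of it and the ratio was 0.90 without that cell. The day 3 ratio of Cbln2 turned to -3.65 without SNT-side cell 18, and that of Npy2r to -0.49 without SNT-side cell 31.

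In all, 40 genes passed 2-fold in the same direction on both days, 13 higher and 27 lower, and 29 passed it in opposite directions. Of 59 day 3 higher genes at 10 CPM on day 7, 13 were 2-fold higher and 9 (15.3%) 2-fold lower, where 177 and 185 of all 8855 genes were. Of 191 day 3 lower genes, 27 (14.1%) were 2-fold lower and 20 (10.5%) 2-fold higher. Of the 40, 11 stayed past 2-fold on both days whichever cell was left out, 2 higher and 9 lower. Of the 6 higher genes of the naming rule, 4 (66.7%) were below 0 on the log2 scale at day 7, against 55.6% of all genes. Of its 10 lower genes, 7 (70%) were above 0, against 44.4% of all genes. Smyd3 (-0.46), Igfbp2 (2.04) and Acot11 (-1.17) were among those with the other direction at day 7.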

How the data were processed

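Single DRG neurons and pooled neurons were profiled by Smart-seq2. The submitters' processing notes name CASAVA 1.8.2, Bowtie2, RSEM and mm9. The values deposited by the authors are expected counts (estimated counts per gene, in part not whole) for 24134 genes, although the files are named as TPM. Of the 2 tables, the one without 11 outlier cells was used here. Values were scaled to CPM by column sums (Python 3.11.15, numpy 2.4.6, pandas 2.3.3, scipy 1.17.1). Kept cells held 261351 to 1849130 counts, without molecular identifiers, so intervals cover counting error only. Ratios used mean CPM plus 1, and counts of genes used those with a mean of at least 10 CPM in the higher group (at least 1 CPM for medians of lists). Named genes were the list members and up to 15 genes in each direction with a 2-fold difference of means and medians and 80% of cell pairs in that order. Genes outside this rule were named where a lone cell or a recurrence at day 7 was described, after their values were seen. Results for some genes are not reported here. The step from counts to calls was checked on simulated data. Cells were picked singly by hand and no doublet caller was run. Cells, limits, classes and lists were chosen with earlier results of these data known. The counting made no use of strand, as far as the sources used here say, so overlapping genes and close paralogs such as Mrgpra3 and Mrgprx1 are uncertain.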

Additional observations from a re-analysis of the deposited data

How the results depend on the processing

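No paired analysis was possible because the cell numbers only name cells within a side and no result came from a test. The comparisons of cells with high Mrgprd or Mrgpra3, the type-weighted comparison, the one without the 2 Th-rich control cells and the leaving out of each cell from the type-weighted and day 7 values were chosen after seeing the data. Atf3 limits of 50 and 200 CPM gave the values reported, and median-of-ratios size factors moved the median of all genes by -0.01 and changed no direction among the 54 genes checked. Results were otherwise sensitive to which cells were compared, and the cause was not tested.

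The 127 genes 2-fold higher became 245 by medians over cells, 51 with 10 CPM added, 316 with a minimum of 1 CPM, 451 with the outlier cells included (5 Atf3-low and 4 control), 275 in cells with P2rx3 of at least 100 CPM, 325 in cells below it, 436 in Mrgprd-high cells, 724 in Mrgpra3-high cells and 378 type-weighted. The 222 lower genes became 83 with 10 CPM added, 552 with a minimum of 1 CPM, 354 and 625 in the cells above and below the P2rx3 limit and 426 in Mrgpra3-high cells. Leaving out each cell in turn gave 111 to 161 higher and 193 to 361 lower genes, the 361 without SNT-side cell 18. Fewer cells per group were compared in each class, and of the 127 higher genes 42 were 2-fold higher in the Mrgprd-high cells, 45 in the Mrgpra3-high cells and 42 type-weighted.

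The median log2 ratio of the regeneration associated genes, 0.01, became 0.44 by medians over cells, 0.45 with the outlier cells, 0.93 in Mrgpra3-high cells and 0.38 type-weighted, and was -0.06 to 0.11 on leaving out each cell. For genes raised in pooled neurons, -0.03 became 0.29 with the outlier cells, -0.29 below the P2rx3 limit, 0.30 in Mrgprd-high cells, 0.56 in Mrgpra3-high cells and 0.47 type-weighted, with -0.11 to 0.03 on leaving out each cell. For genes lowered in pooled neurons, -0.28 became -0.00045 by medians over cells, 0.23 below the P2rx3 limit, 0.10 in Mrgpra3-high cells and -0.029 type-weighted, with -0.37 to -0.19 on leaving out each cell.

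Of 54 genes checked, 9 turned round by medians over cells, with log2 ratios of 0.77 for Adcyap1, 1.14 for Zfp521, 0.17 for Fos, 1.25 for Egr1, 0.95 for Scn1a, -0.17 for Kcnk1, 0.23 for Kcnd3, 0.018 for Gabra5 and 0.90 for Hoxd1. Adcyap1 (1.18) and Kcnk1 (-0.81) turned round at P2rx3 of at least 100 CPM. In the type-weighted comparison 19 turned round, with log2 ratios of 1.95 for Adcyap1, 1.69 for Asic1, 1.66 for Hspb1, 1.5 for Egr1, 1.48 for Zfp521, 1.41 for Hoxd1, 1.3 for Scn1a, 0.85 for Penk, 0.78 for Spp1, 0.58 for Pou4f2, 0.29 for Gabra5, 0.28 for Th and for Cacna1h, 0.27 for Tac1, 0.22 for Fam19a4, 0.14 for Asic3, 0.0034 for Kcnd3, -0.048 for Mrgpra3 and -0.10 for Ifit3. Among these 19 genes, Asic1, Zfp521, Hoxd1, Scn1a, Penk, Spp1, Pou4f2, Gabra5, Th, Cacna1h and Asic3 averaged under 10 CPM in both type-weighted groups. On leaving out each cell, 5 genes turned round. Adcyap1 ran from -2.46 to 0.54 (without control-side cell 1), Fam19a1 from -1.38 (without SNT-side cell 31) to 2.22, and, each lowest without SNT-side cell 18, Calb1 from -4.65 to 7.52, Kcnk1 from -1.26 to 1.62 and Gabrg1 from -1.35 to 3.08.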
